A study of Mus musculus with 10 samples.

Results

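Cholesterol and fatty acid synthesis was examined through 34 genes, chosen by symbol, in sublines of 4T1, a mouse mammary carcinoma line that spreads from a tumour in the host to distant organs. The table of the arrays held 54 probes for 31 of the 34 genes, out of 45281 probes in all. A probe was called detected on an array when its detection p-value was at most 0.01. Of the 54 probes, 44 were detected on at least 1 array, and these covered 30 of the 9486 genes with a detected probe in the whole series. The single Acaca probe, for the first committed enzyme of fatty acid synthesis, was detected on 0 of 10 arrays. Hmgcs1, Acat2 and Fdft1 were not analysed here.

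The sublines came from brains (B, n = 4), lungs (L, n = 3) and primary tumours (T, n = 3, coded P in the labels) of female BALB/c mice. All hosts, aged 6 to 8 weeks at inoculation, had received the parental 4T1 cells, tagged with firefly luciferase, as a primary tumour, which the labels call orthotopic and the study's methods subcutaneous. Each subline was an independent outgrowth kept in culture for 3 to 4 passages, so the RNA is that of cultured cells and not of tissue taken from the mouse. Each was measured once, on 1 Illumina MouseWG-6 v2.0 array, and the spread between arrays of a group is therefore the spread between sublines. The sources do not say which sublines of different organs came from the same mouse.

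Cells build cholesterol from acetyl-CoA. The isoprenoid arm leads through mevalonate to farnesyl diphosphate, and the sterol arm leads from squalene through lanosterol to cholesterol. SREBP-2, encoded by Srebf2, drives most of these enzymes when sterols in the endoplasmic reticulum are low, and SREBP-1, encoded by Srebf1, drives fatty acid genes. Scap escorts both factors to the Golgi for cleavage, and the Insig proteins hold Scap back when sterols are plentiful.

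The number of detected probes was 14796 to 15563 on B, 14764 to 14938 on L and 14218 to 14635 on T. Before normalisation the median intensity was 80.77, 68.81, 75.53 and 85.14 on B1 to B4, 69.15 to 85.95 on L and 72.6 to 83.78 on T. Of 8 mammary epithelial markers, 6 were detected (Cdh1, Krt8, Krt18, Krt19, Krt14 and Cldn4), whereas Epcam and Krt5 were detected on 0 of 10 arrays. The defining markers of macrophages and microglia (0 of 7), endothelium (0 of 6) and lymphocytes (0 of 4) were not detected. Of 7 astrocyte markers only Gja1 was detected and Gfap was not, and of 6 oligodendrocyte markers Mbp and Cnp were detected and Mog was not, each on all 10 arrays. The astrocyte list summed to 10300 to 11100 in B, 9060 to 11200 in L and 10000 to 10600 in T on a linear scale, and the oligodendrocyte list to 318 to 433 in B, 410 to 480 in L and 377 to 442 in T. Of 6 neuronal markers only Tubb3 was detected, on B arrays alone (30.6 to 59.7 in B, 34 to 52.1 in L and 26.2 to 39.9 in T), and of 6 lung epithelial markers only Ager, on B and L arrays (37 to 49.3 in B, 49.7 to 57.2 in L and 33.3 to 47.1 in T). Of 6 fibroblast and pericyte markers, 3 were detected (Pdgfra, Pdgfrb and Dcn), while Col1a1, Col1a2 and Rgs5 were not. Their summed level, on a linear scale, was 699 to 2910 in B, 389 to 636 in L and 170 to 277 in T, and most of it was Pdgfra. This sum moved with the groups, and its part in the differences below was not tested. In RNA from whole cultures, a lower level of a transcript per cell and a smaller share of cells carrying it cannot be told apart.

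To ask whether the pathway differed by site of isolation, levels were compared as the log2 of the normalised probe intensity, with the most variable detected probe standing for each gene. A gene was called when its adjusted p-value (limma, Benjamini-Hochberg over all genes tested) was under 0.05. In B against T, 3 of the 30 genes passed: the mevalonate kinase gene Mvk and the regulator Srebf2 were lower in B, and Insig2, which restrains the SREBPs, was higher. The other 27 were not called. Among all 9352 genes tested in this comparison 7.53% were called higher and 6.91% lower, so 1 gene of the list called higher and 2 called lower is no larger a share than that of all genes tested. The median difference of the 30 genes was -0.25, with 21 of 30 below 0, beside a median of -0.01 and 50.5% below 0 over all genes. A difference here is a log2 level in B minus that in T, so a value of -1 is a level lower by a factor of 2 in B.

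**Figure D1:**
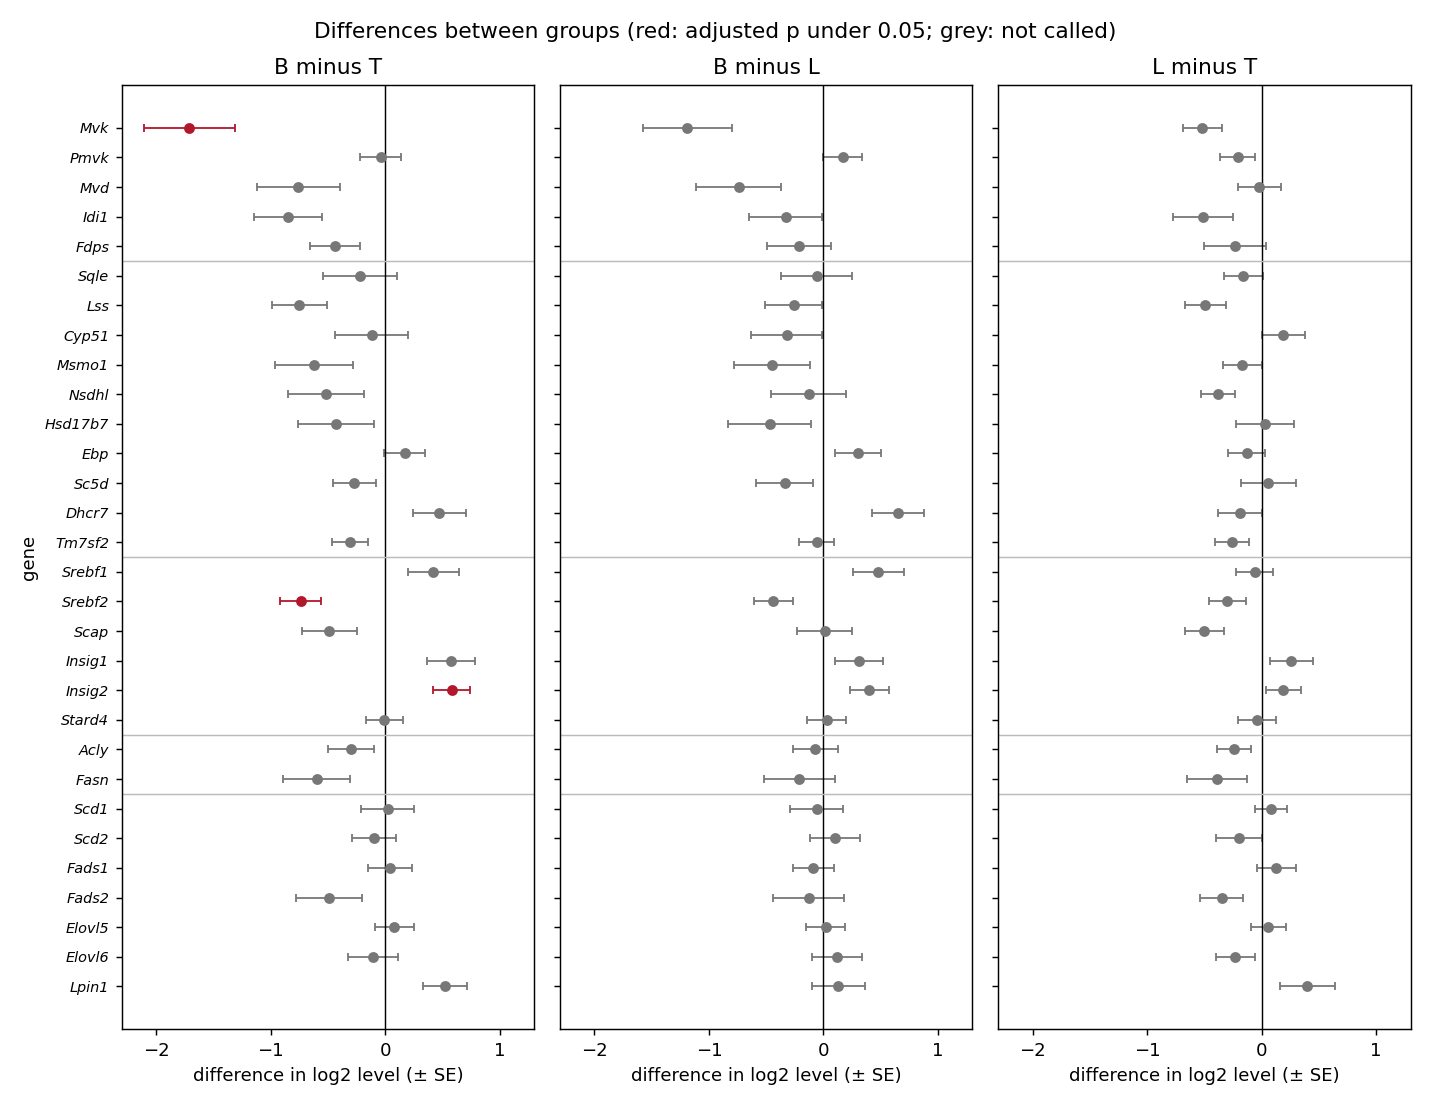
Difference in log2 level for each of 30 genes (rows, grouped by role) between B and T, B and L, and L and T sublines, as points with bars of 1 SE from the limma fit. Red points passed an adjusted p-value of 0.05, which in B minus T were Mvk at -1.71, Srebf2 at -0.74 and Insig2 at 0.58, and no point is red in the other panels.

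The isoprenoid arm held the largest difference of the list. Mvk, whose enzyme phosphorylates mevalonate, read 6.48, 5.29, 5.69 and 7.18 on the B1 to B4 arrays, 7.55, 7.30 and 7.21 on L1 to L3, and 7.77, 7.70 and 8.14 on T1 to T3. All 4 B values lay below every L and T value. Mvk averaged 6.16 ± 0.84 in B and 7.87 ± 0.24 in T (SD, n = 4 and 3), a difference of -1.71 (SE 0.40, limma adjusted p = 0.0231), or a level lower by 3.27-fold in B. It rests on a single dim probe, which was not detected on B2 and B3, where its raw intensities were 80.5 and 101.6. On the values that the authors processed, which are on another scale, the difference was -0.75 (limma adjusted p = 0.0155).

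The other 4 genes of this arm were not called, and all of them had a negative difference. Idi1, the isomerase that makes the building block DMAPP from IPP, differed by -0.85 (SE 0.30, limma adjusted p = 0.0866), and its B values of 7.84 to 8.94 did not overlap the T values of 9.02 to 9.68. Mvd, the decarboxylase that yields IPP, differed by -0.76 (SE 0.36), with B1 and B2 at 7.66 and 7.20 and B3 and B4 at 8.57 and 8.80, against 8.59 to 8.97 in T. Fdps, which joins the units to farnesyl diphosphate, differed by -0.44 (SE 0.22), and Pmvk, the next kinase after Mvk, by -0.04 (SE 0.18). The median of the 5 genes was -0.76.

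In the sterol arm, 0 of 10 genes were called in B against T, while 8 of the 10 differences were negative (median -0.29, range -0.75 to 0.47). Lss, which closes squalene epoxide into lanosterol, read 9.37, 9.64, 10.07 and 10.32 in B1 to B4, 9.84, 10.16 and 10.34 in L1 to L3, and 10.74, 10.71 and 10.35 in T1 to T3. Its B values lay just below the T values, with a difference of -0.75 (SE 0.24, limma adjusted p = 0.0667). Lss passed in 4 of 19 alternatives. It did so when no background was removed (-0.71, adjusted p = 0.0431) and at the larger offset of 50 (-0.73, adjusted p = 0.0455). It also passed when all 10 arrays entered 1 model (-0.75, adjusted p = 0.0386) and without B4 (-0.90, adjusted p = 0.0345). With 1 array left out, its limma adjusted p reached 0.202. The second detected Lss probe differed by -0.38 (SE 0.17, limma adjusted p = 0.159 over all probes). Sqle, the squalene epoxidase and a rate-limiting enzyme, read 9.97, 8.98, 10.02 and 10.51 in B1 to B4, against 9.82, 9.84 and 10.12 in L and 10.21, 10.22 and 9.83 in T. The B values spanned those of both other groups, and the difference from T was -0.22 (SE 0.32, adjusted p = 0.688). Msmo1, Nsdhl and Hsd17b7, which take part in removing methyl groups from the sterol ring, differed by -0.62 (SE 0.34), -0.52 (SE 0.33) and -0.43 (SE 0.33). Cyp51, the first demethylase on lanosterol, differed by -0.12 (SE 0.32), and Tm7sf2, a sterol reductase, by -0.31 (SE 0.16). The late enzymes Ebp and Dhcr7 were the exceptions in sign, at 0.17 (SE 0.18) and 0.47 (SE 0.23).

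The regulators went in both directions. Srebf2 read 7.47, 7.26, 7.36 and 7.75 in B1 to B4, 7.93, 7.99 and 7.78 in L1 to L3, and 8.07, 8.41 and 8.11 in T1 to T3. The 3 groups did not overlap, with B lowest and T highest. The mean was 7.46 ± 0.21 in B and 8.20 ± 0.19 in T (SD), a difference of -0.74 (SE 0.18, limma adjusted p = 0.0284). The second detected Srebf2 probe differed by -0.42 (SE 0.23) and did not pass over all probes (adjusted p = 0.249), and on it B3 at 8.98 was above T1 at 8.78.

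Insig2 ran the other way, at 10.66, 10.80, 10.41 and 10.65 in B1 to B4, 10.34, 10.30 and 10.05 in L1 to L3, and 9.97, 10.04 and 10.12 in T1 to T3. Every B value was above every L and T value. The difference from T was 0.58 (SE 0.16, limma adjusted p = 0.0401), a level 1.50-fold higher in B, and the second probe gave 0.52 (SE 0.16, adjusted p = 0.0622 over all probes). Insig1, a classical SREBP target that also retains Scap, read 8.77, 8.61, 9.11 and 9.26 in B1 to B4, 8.30, 8.76 and 8.82 in L, and 8.64, 8.26 and 8.20 in T. It differed by 0.57 (SE 0.21, adjusted p = 0.0945), with T1 just above B2, and its other probes gave 0.42 and 0.30.

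Srebf1 was high on B3 and B4, at 6.92 and 7.05, whereas B1 at 6.21 lay within the 6.07 to 6.40 of L and the 6.16 to 6.41 of T, and B2 at 6.59 was just above both. The difference between B and T was 0.42 (SE 0.22, limma adjusted p = 0.225). The most variable Scap probe was detected on 2 of 10 arrays, where B read 4.89 to 5.91, L 5.30 to 5.61 and T 5.78 to 6.13, and is close to background. The other Scap probe was detected on all 10 arrays and read 8.62, 8.74, 8.13 and 8.57 in B1 to B4, 8.70, 8.70 and 9.05 in L1 to L3, and 9.16, 9.01 and 9.48 in T1 to T3. On that probe all B values were below all T values, with a difference of -0.70 (SE 0.20, limma adjusted p = 0.0461 over all probes), against -0.49 (SE 0.24, adjusted p = 0.189) on the dim probe. Stard4, which carries cholesterol between membranes, differed by -0.01 (SE 0.16).

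**Figure D2:**
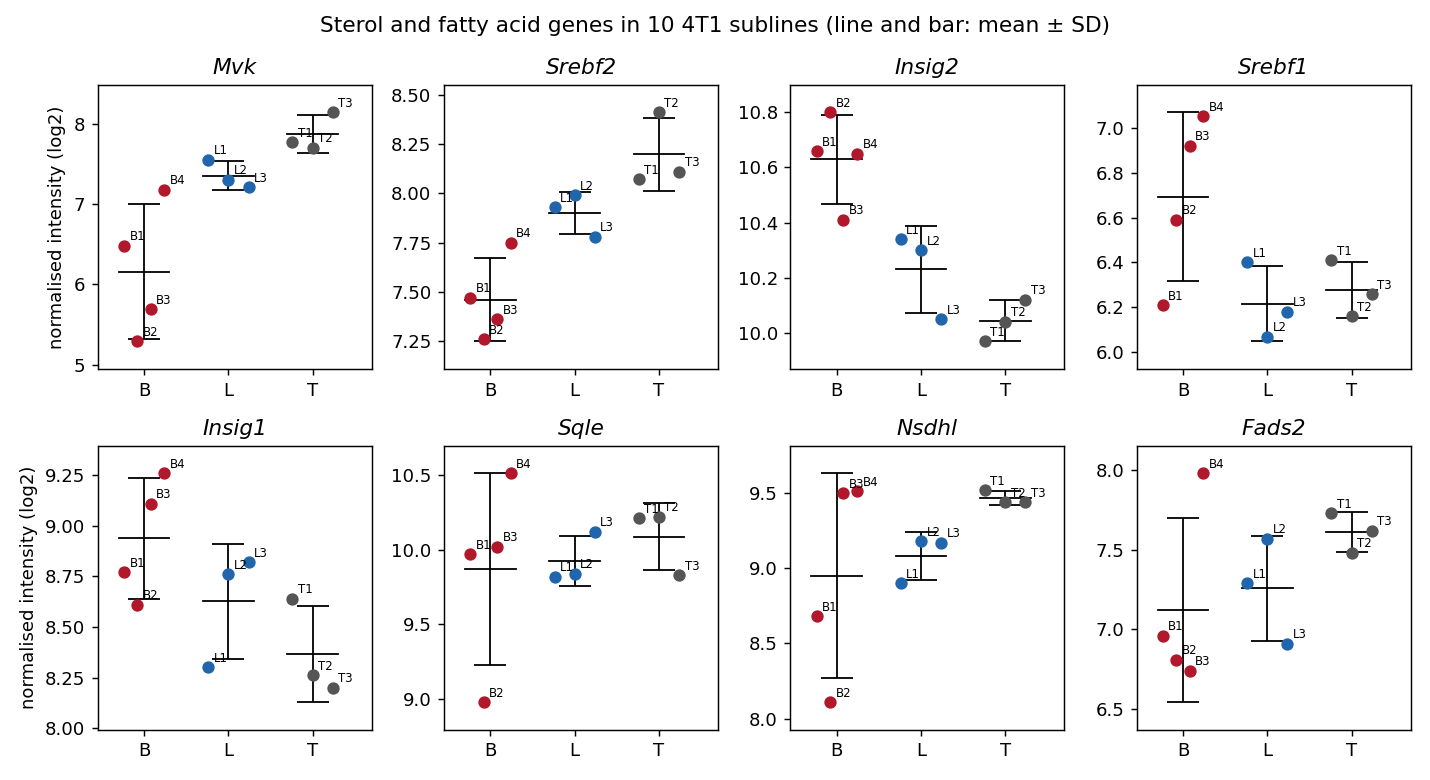
Normalised log2 intensity of 8 genes in each B, L and T subline (points, labelled by subline), with the group mean and SD as lines. B lies apart from both other groups for Mvk, Srebf2 and Insig2, whereas for Sqle and Nsdhl the B sublines spread from below the L and T sublines to their level or above, and for Fads2 B4 at 7.98 stands above B1 to B3.

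Fatty acid synthesis proper was measured by few usable probes. Acly, which supplies cytosolic acetyl-CoA, was bright, at 12.41 to 13.05 in B, 12.64 to 12.87 in L and 12.89 to 13.09 in T. It differed between B and T by -0.30 (SE 0.20, limma adjusted p = 0.317). Fasn, the fatty acid synthase, was detected on B4, L2, L3 and T3 only, and read 4.78, 5.22, 5.32 and 6.01 in B1 to B4, 5.01, 5.85 and 5.77 in L, and 5.91, 5.57 and 6.31 in T. Its difference of -0.60 (SE 0.29, adjusted p = 0.191) is between levels that were mostly not above background.

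None of the 7 genes of desaturation, elongation and glycerolipid synthesis was called. Scd1, the main stearoyl-CoA desaturase, read 10.42, 10.64, 11.34 and 11.03 in B1 to B4, 10.99, 10.79 and 10.97 in L, and 10.76, 10.89 and 10.87 in T, so that the B values lay on both sides of the other groups. Its difference from T was 0.02 (SE 0.23), and that of Scd2 was -0.10 (SE 0.19), with 9.15, 9.22, 9.38 and 9.76 in B, 8.98, 9.68 and 9.17 in L, and 9.34, 9.40 and 9.68 in T. Fads1, Elovl5 and Elovl6, which desaturate and lengthen longer acyl chains, differed by 0.04, 0.08 and -0.11 (SE 0.19, 0.17 and 0.22). The 2 detected Elovl6 probes disagreed in sign, and the second gave 0.44 (SE 0.18, limma adjusted p = 0.143 over all probes). Fads2, the delta-6 desaturase, differed by -0.49 (SE 0.29), and on its second probe by -0.72 (SE 0.26, limma adjusted p = 0.0951 over all probes). Without B4 the first probe gave -0.77 (limma adjusted p = 0.0231). Without any other single array its limma adjusted p was 0.355 to 0.503. Lpin1, a phosphatidate phosphatase of glycerolipid synthesis, read 6.74 to 7.25 in B and 6.15 to 6.70 in T without overlap, a difference of 0.52 (SE 0.19, adjusted p = 0.0991).

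In all, the B and T values did not overlap for 5 genes that were lower in B (Mvk, Idi1, Lss, Tm7sf2 and Srebf2) and for 2 that were higher (Insig2 and Lpin1). Over all genes tested, 15.7% were lower and 14.7% higher without overlap. With any 1 T array left out, leaving 2, 0 genes of the list were called, and 330, 571 and 445 genes in all without T1, T2 and T3. The differences themselves were then -1.79 to -1.57 for Mvk, -0.80 to -0.63 for Srebf2 and 0.55 to 0.62 for Insig2. Without B1 only Mvk was called, and Insig2 was also lost without B2 (adjusted p = 0.0640) and without B4 (adjusted p = 0.0627).

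The proximal promoters of the 3 called genes are shown for the motifs they carry, with that of Hmgcs1 for the only sterol regulatory element found. SREBPs bind sterol regulatory elements and act with NF-Y at the CCAAT box and Sp1 at the GC box. RefSeq windows of 300 bases (GRCm38.p6, 250 before and 50 after the annotated start) were given for 27 of the 34 genes, which had 35 windows. Both strands were searched. TCACNCCAC, a sterol regulatory element, was in 1 of these 35 windows and in 1.24% of all 32851 windows. CCAAT was in 62.9% of them and 37.4% of all, GGGCGG (the GC box) in 71.4% and 35.7%, and CACGTG (the E-box) in 20% and 7.15%. A match of letters is a description and not a bound site, and other forms of these elements were not searched. Below, CCAAT or its reverse complement, and the sterol regulatory element, are in capitals, 5′ to 3′ along the gene. Mvk (chr5:114444019-114444318, plus strand) holds 5 CCAAT boxes, Srebf2 (chr15:82147019-82147318, plus strand) holds 1, the farthest upstream of 3 Insig2 windows (chr1:121332540-121332839, minus strand) holds 3 and the other 2 windows hold 0, and Hmgcs1 (chr13:119690101-119690400, plus strand) holds 4 and the element.
Mvk: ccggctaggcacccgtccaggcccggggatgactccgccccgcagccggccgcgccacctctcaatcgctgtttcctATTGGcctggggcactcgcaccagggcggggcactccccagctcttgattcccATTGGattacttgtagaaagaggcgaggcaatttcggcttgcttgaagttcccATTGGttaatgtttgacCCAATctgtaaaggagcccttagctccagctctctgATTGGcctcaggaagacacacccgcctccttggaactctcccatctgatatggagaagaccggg
Srebf2: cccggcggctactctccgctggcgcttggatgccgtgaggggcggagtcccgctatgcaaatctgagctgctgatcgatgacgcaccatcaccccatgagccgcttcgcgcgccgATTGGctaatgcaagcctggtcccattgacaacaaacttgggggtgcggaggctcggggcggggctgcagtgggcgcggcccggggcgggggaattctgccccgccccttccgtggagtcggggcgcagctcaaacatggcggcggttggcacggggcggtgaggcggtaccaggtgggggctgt
Insig2: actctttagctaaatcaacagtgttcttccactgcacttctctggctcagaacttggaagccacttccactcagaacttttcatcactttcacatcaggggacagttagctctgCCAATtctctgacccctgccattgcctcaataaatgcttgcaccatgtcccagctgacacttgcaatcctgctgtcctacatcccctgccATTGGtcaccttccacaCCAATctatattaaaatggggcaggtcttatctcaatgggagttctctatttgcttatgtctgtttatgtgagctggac
Hmgcs1: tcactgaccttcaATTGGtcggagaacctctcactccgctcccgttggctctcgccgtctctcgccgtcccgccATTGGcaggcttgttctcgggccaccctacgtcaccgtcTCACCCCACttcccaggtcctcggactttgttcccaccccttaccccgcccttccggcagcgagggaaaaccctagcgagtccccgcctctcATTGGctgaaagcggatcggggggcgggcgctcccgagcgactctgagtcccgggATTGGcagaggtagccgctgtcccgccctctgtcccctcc

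The more marked feature of the list was the spread among the B sublines. The median SD over the 30 genes was 0.37 in B, 0.23 in L and 0.19 in T, beside 0.28, 0.19 and 0.20 over all genes. The SD in B exceeded those in both L and T for 24 of the 30 genes (80%), against 57% of all genes. These shares are descriptive, since genes of a pathway are not independent of each other and no test was made.

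The B sublines had an order. It was not a planned comparison, and B2 and B4 are named as its extremes. B2 was the lowest of the 4 B arrays for 17 of the 30 genes (56.7%, against 25.7% of all genes), and the lowest of all 10 arrays for 13 (43.3%, against 13.2%). B4 was the highest of the B arrays for 21 of the 30 (70%, against 22.9%), and the highest of all 10 for 10 (33.3%, against 7.74%). Over all genes, neither array stood out in this way on the normalised values. Before normalisation, B2 had the lowest median intensity of the 10 arrays (68.81). B4 had the highest of the 4 B arrays (85.14) and the most detected probes of all 10 (15563). The part of array signal in the order was not tested.

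**Figure D3:**
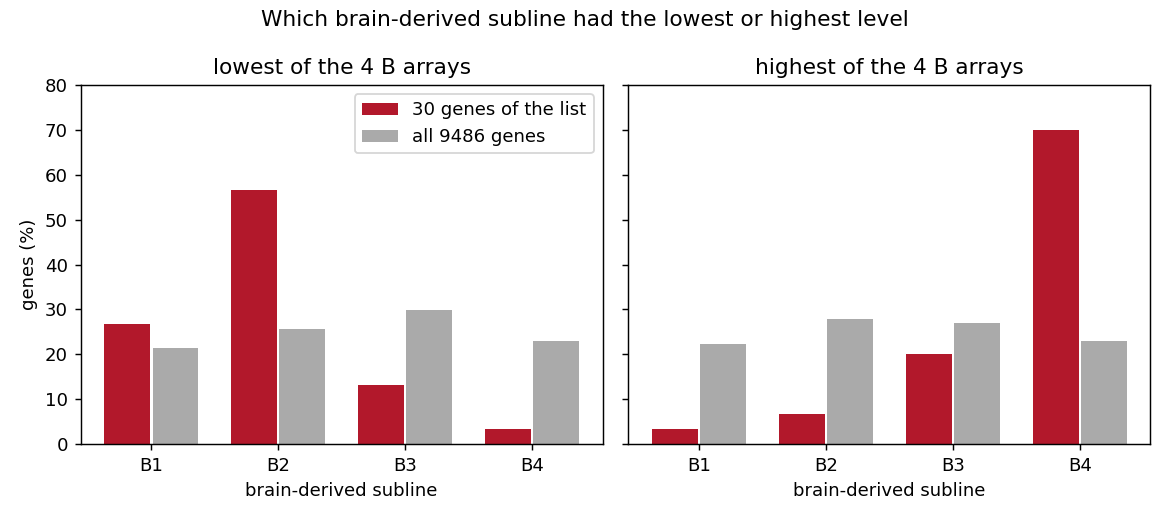
Share of genes, in percent, for which each brain-derived subline had the lowest (left) or the highest (right) level of the 4 B arrays, for the 30 genes of the list (red) and all 9486 genes (grey). Among the 30 genes B2 was lowest for 56.7% and B4 highest for 70%, while all genes divide nearly evenly over the 4 arrays.

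The low values of B2 were in the cholesterol enzymes. B2 was the lowest of 10 arrays for 4 of the 5 isoprenoid genes and 6 of the 10 sterol-arm genes, and its median deviation from the mean of the 10 arrays was -0.70 and -0.65 for these arms. B1 was also low, at -0.55 and -0.21, whereas B3 (0.04 and 0.16) and B4 (0.17 and 0.25) were not. Sqle on B2, at 8.98, lay below all other arrays, of which L1 at 9.82 was the lowest. Nsdhl read 8.68, 8.11, 9.50 and 9.51 in B1 to B4, against 8.90 to 9.18 in L and 9.44 to 9.52 in T, so that B3 and B4 were at the level of T while B1 and B2 lay below every other array. Msmo1 had the same shape, at 9.89, 9.42, 10.90 and 10.66 in B1 to B4, against 10.55 to 10.80 in L and 10.67 to 11.11 in T. Between the highest and the lowest B array the level differed 3.01-fold for Mvd, 2.89-fold for Sqle, 2.79-fold for Cyp51 and for Msmo1, 2.64-fold for Nsdhl and 2.60-fold for Hsd17b7. For Mvk, where the lowest array B2 was not above background, the measured values differed 3.70-fold.

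The high values of B4 were in the desaturases and elongases, where it was the highest of 10 arrays for 5 of 7 genes (Scd2, Fads1, Fads2, Elovl5 and Elovl6). It was also the highest of 10 for Sqle, Cyp51 and Dhcr7 and for the regulators Srebf1 and Insig1. Other probes of these genes varied. B4 was again the highest of 10 on the second Elovl6 probe (11.58) and on 1 further Insig1 probe (9.11). The other Insig1 probe was highest on B1 (10.1, with B4 at 10.09). On the second Fads2 probe B4 at 8.52 was below T1 at 8.78, L2 at 8.73 and L3 at 8.55. On the second Sqle probe B4 at 11.91 was below B3 and L2 (12.18), T1 (12.09) and L3 (11.99). Srebf2 was lowest on B2 and highest on B4 within B, although B4 at 7.75 was still below every L and T array. On the second Srebf2 probe B2 was again lowest within B (7.97), but B3 was highest (8.98) and B4 read 8.57. The fibroblast and pericyte markers summed to 699, 742, 2910 and 706 on B1 to B4, mostly Pdgfra. Dcn, a single marker of that list, was detected on B4 and on no other B array, at 99.2 on the linear scale against 24.2, 24.3 and 35.5 on B1 to B3, and its part in the order was not tested.

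The order of the B sublines changed little with the processing. With no background correction, with an offset of 50, with median scaling, on the values that the authors processed, or with the brightest probe per gene, B4 was the highest of B for 17 to 21 of the 30 genes (22.5% to 31.1% of all genes) and B2 the lowest for 17 or 18 (25.5% to 27% of all genes). Of 13 further probes for these genes that were detected on all 10 arrays, B4 was highest on 8 (against 23.3% of such probes of all genes) and B2 lowest on 9 (against 24.3%). The second Sqle probe read 11.73, 10.65, 12.18 and 11.91 in B1 to B4, with B2 again far below. With B2 left out, 17 of 30 differences between B and T were negative, with a median of -0.13.

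**Figure D4:**
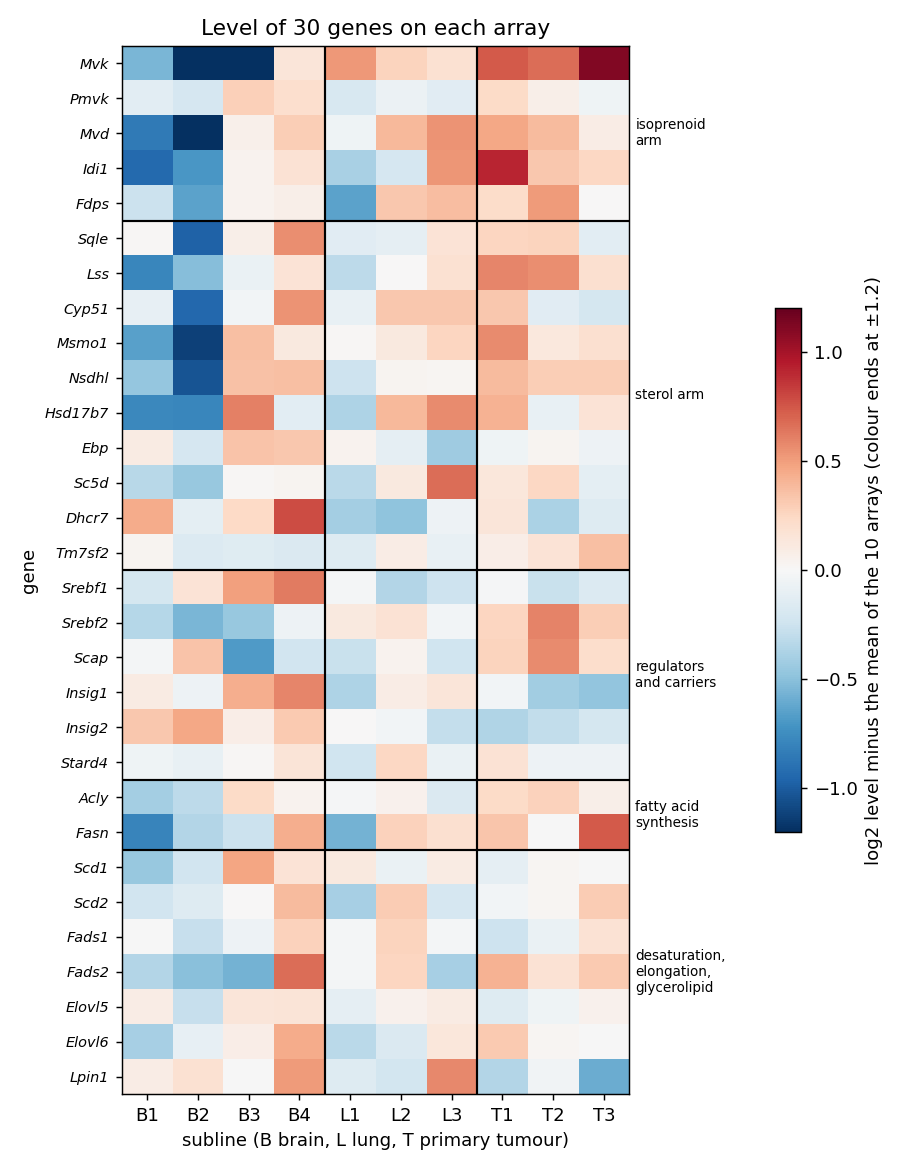
Log2 level of each of 30 genes (rows, grouped by role) on each array (columns), as the deviation from the mean of the gene over the 10 arrays, with red above and blue below. B1 and B2 are mostly blue in the isoprenoid and sterol arms and B3 and B4 mostly are not, B4 is red in the desaturases and elongases, and Mvk is blue on B1 to B3. The Scap and Fasn probes are dim.

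To separate the brain from metastasis in general, B was also set against L, the sublines of the other metastatic site, and 0 of 30 genes were called by limma and by a random variance model with the same adjustment. Of all 9423 genes tested 3.83% were called higher and 4.23% lower in B. An unadjusted limma p-value under 0.05 was found for 4 genes of the list (13.3%), against 25.7% of all genes. The median difference of the 30 was -0.06, beside 0 over all genes. Mvk differed by -1.19 (SE 0.39, limma adjusted p = 0.0914), with the B values all below the 7.21 to 7.55 of L. With replicate numbers as a block, a fit to which B4 adds nothing as it has no L partner, Mvk was called at -1.53 (adjusted p = 0.0233). It was likewise called with B4 left out (-1.53, adjusted p = 0.0217). These were the only 2 calls of Mvk in 18 alternatives, and both set B4 aside. With any other single array left out, its limma adjusted p was 0.128 to 0.245.

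Srebf2 differed between B and L by -0.44 (SE 0.17, limma adjusted p = 0.144) and Insig2 by 0.40 (SE 0.17, adjusted p = 0.168), both without overlap. These and Mvk were the genes whose B and L values did not overlap, 2 lower and 1 higher, where 12.9% and 12% of all genes did so. Dhcr7, a terminal reductase of the pathway, read 8.39, 7.83, 8.19 and 8.73 in B1 to B4, against 7.54, 7.47 and 7.89 in L. Only B2 fell within the range of L, and the difference was 0.65 (SE 0.23, adjusted p = 0.107). Of the other genes, none called, the differences were 0.48 (SE 0.22) for Srebf1, 0.31 (SE 0.21) for Insig1, -0.74 (SE 0.37) for Mvd, -0.26 (SE 0.25) for Lss and -0.21 (SE 0.31) for Fasn. Sqle at -0.06, Scd1 at -0.06, Scd2 at 0.10 and the dim Scap probe at 0.01 were within 1 SE of 0.

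Lung and primary tumour sublines gave the fewest calls of the 3 comparisons. In L against T 0 of 30 genes were called by either test, beside 0.379% of 8974 genes called higher and 0.0334% called lower. For 4 genes of the list (13.3%) the unadjusted limma p-value was under 0.05, against 14.8% of all genes. In 7 genes all L values were below all T values (Mvk, Pmvk, Lss, Nsdhl, Srebf2, Scap and Acly) and in 0 genes above, where 9.93% and 10.3% of all genes did so. For Scap this is the dim probe, detected on 0 of 3 L and 1 of 3 T arrays, and on the brighter probe L3 at 9.05 was above T2 at 9.01. The median difference of the 30 was -0.18, with 21 of 30 below 0, beside -0.01 and 51.2% over all genes. Mvk differed by -0.52 (SE 0.17, limma adjusted p = 0.220), Lss by -0.49 (SE 0.18, adjusted p = 0.256), Nsdhl by -0.38 (SE 0.15, adjusted p = 0.274) and Srebf2 by -0.30 (SE 0.16, adjusted p = 0.412). Acly differed by -0.24 (SE 0.15), Fasn by -0.39 (SE 0.26), Sqle by -0.16 (SE 0.17), Scd2 by -0.20 (SE 0.20) and Srebf1 by -0.06 (SE 0.16). Insig1, Insig2 and Scd1 were the other way, at 0.26, 0.19 and 0.08 (SE 0.19, 0.15 and 0.14). The comparisons of B and L with T use the same 3 T arrays, so that their signs are not independent.

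Genes around the pathway were taken from 7 further lists, chosen with earlier results of these data known. In B against T, cholesterol uptake, transport and esterification had 3 of 7 tested genes called higher and 0 lower, beside the 7.53% and 6.91% of all genes given above, which are the background for each list. These were the lipoprotein receptor Lrp1 (1.00, SE 0.28, limma adjusted p = 0.0439), Npc2, which hands cholesterol out of the lysosome (0.82, SE 0.16, adjusted p = 0.0128), and the sterol-binding protein Osbpl2 (0.76, SE 0.18, adjusted p = 0.0238). Fatty acid oxidation had 2 of 10 higher and 0 lower. These were the electron transfer enzyme Etfdh (0.83, SE 0.19, limma adjusted p = 0.0214) and the carnitine carrier Slc25a20 (0.74, SE 0.21, limma adjusted p = 0.0488). The Slc25a20 probe was detected on only 2 of 3 T arrays, so that its T level is close to background. Triglyceride synthesis and lipid droplets had the droplet coat gene Plin3 higher (1.02, SE 0.20, adjusted p = 0.0136) and the acyltransferase Dgat2 lower (-1.41, SE 0.29, adjusted p = 0.0151) out of 9, where Dgat2 was detected on 1 of 4 B arrays, so that its B level is mostly not above background.

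Other fatty acid synthesis genes had Acsl4, an acyl-CoA synthetase, higher at 0.80, and Fads3 lower at -1.61 (SE 0.41, limma adjusted p = 0.0310) out of 10. Pnpla3 was also called lower there, but its probe was detected on 0 B arrays and on only 1 T array. Its levels were mostly not above background in both groups, so no fold is given against T or L. Of 3 other cholesterol synthesis genes, Dhdds, a prenyltransferase of dolichol synthesis, was higher (0.57, SE 0.16, adjusted p = 0.0479). SREBP processing and sterol sensing (0 of 7) and LXR targets and efflux (0 of 3) had no gene called. They had 2 and 0 genes with an unadjusted limma p-value under 0.05, where 32.1% of all genes had one. In B against L the same lists gave Dhdds (0.69) and Osbpl2 (0.70) higher and Dgat2 (-1.51, with the same limit) and Pnpla3 lower, and in L against T they gave 0. No call from these lists was followed under other processing or with an array left out.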

How the data were processed

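RNA of 10 independently isolated 4T1 sublines was hybridised to 1 array each. The authors read the arrays with GenomeStudio and deposited the mean bead intensity of each probe, not normalised between arrays and with the background in it, and a detection p-value per probe and array. They also deposited values processed with lumi (variance stabilisation and robust spline normalisation, close to a log2 scale), which served as an alternative. No source used here gives their versions.

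Intensities were background-corrected with normexp, given an offset of 16, quantile normalised and put on the log2 scale with neqc of limma 3.58.1 in R 4.3.3. For each comparison, probes detected (p-value at most 0.01) on at least 1 of its arrays were kept, and the most variable probe by interquartile range stood for a gene. Of 45281 probes, 34903 were annotated, 18 of them with several symbols, and these 18 were not used. Groups were compared by limma (lmFit, eBayes, two-sided) on the arrays of both groups only, with Benjamini-Hochberg adjustment over all genes tested. Each array counted as 1 replicate, no arrays were identical, and the number of arrays limits the precision. The test was checked on simulated data. Figures were drawn with matplotlib 3.10.9.

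The members and lists were chosen with earlier results of these data known. Values on every array were given for genes called in any comparison and for 12 enzymes and regulators called or not, of which Hmgcs1, Fdft1 and Acaca gave none. Further genes were named after their values were seen. The spread and the order of the B sublines were not planned comparisons, and the order under other processing was added after the data were seen. Same-numbered B and L arrays deviated together from their group means in 3 of 3 pairs (correlation 0.14 to 0.21, other B and L pairs -0.11 to 0.06). The main fit of B against L nevertheless treated the arrays as unpaired, and the numbers entered as a block only as an alternative. The sources state no pairing and not what a shared number stands for. Alternatives changed the background step, offset, scaling, filter, probe choice, values, model and test, added the replicate block, and left out each array in turn. No slide was named for any array.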

Additional observations from a re-analysis of the deposited data

Results flagged for a closer look

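Among the 4 B sublines, the highest or lowest value was set against the nearest of the others for each of the 30 genes, and a gap that, as a share of the whole range, exceeded Dixon's critical value for 4 samples marked a subline as standing apart. Chance marks about 1 in 20 such groups. This held for 2 of the 30 genes. Tm7sf2 was 6.81 on B1, with the nearest B array at 6.63, a gap of 0.83 of the range, barely past that value and within a whole range of only 0.21. Elovl5 was 11.75 on B2, with the nearest at 12.12, a gap of 0.84 of the range. Fads2 on B4, at 7.98 with the nearest at 6.96, came just short, with a gap of 0.82.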

How the results depend on the processing

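In B against T, 5 genes of the list were called with no background correction and with an offset of 50, 1 with the replicate block, 0 with the random variance model at an unadjusted p under 0.001, and 0 to 4 with 1 array left out. All genes called were 1350, against 543 with that model and threshold (1350 with Benjamini-Hochberg), 703 with the block and 330 to 1410 with 1 array left out. In B against L, 0 genes of the list were called, 1 with the block, and 0 to 1 with 1 array left out. All genes called were 760, against 1146 with 10 arrays in 1 model, 368 with the random variance model at that threshold (767 with Benjamini-Hochberg) and 130 to 839 with 1 array left out. In L against T, 0 genes of the list were called under every alternative run, while all genes called were 37, against 169 with no background correction, 155 with an offset of 50, 74 with median scaling, 0 with no filter and in 1 model of 10 arrays, 113 with the random variance model at that threshold (45 with Benjamini-Hochberg), 9 with the block and 0 to 124 with 1 array left out. With no filter or 1 model, 2048 and 873 genes had an unadjusted limma p under 0.05.

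Same-numbered B and T arrays (-0.11 to 0.07) and L and T arrays (-0.11 to 0.09) did not deviate together, so that the block there shares only a number. It left Mvk called in B against T (-2.05, limma adjusted p = 0.0195) and not Srebf2 (-0.83, adjusted p = 0.0619) or Insig2 (0.58, adjusted p = 0.129). Mvk kept its sign in all 18 alternatives (-2.05 to -0.75, adjusted p 0.00675 to 0.0878) and Srebf2 (-0.83 to -0.42, adjusted p 0.00974 to 0.251) and Insig2 (0.52 to 0.66, adjusted p 0.0118 to 0.144) in all 19. Signs turned where the difference was near 0. Scd1 in B against T was -0.07 with median scaling, -0.04 with the block and -0.14 to 0.17 with 1 array left out. Elovl6 there was 0.44 on the probe with the highest mean, 0.44 on its second probe, 0.40 on the authors' values and -0.25 to 0.03 with 1 array left out. Sqle (-0.43 to 0.08) and Scd2 (-0.22 to 0.01) in B against T turned with 1 array left out. In B against L, Scap was -0.27 with no background correction, -0.28 with an offset of 50, -0.30 on its brighter probe under either probe setting, -0.23 on the authors' values and -0.38 to 0.18 with 1 array left out. Scd2 there was -0.03 with the block and -0.05 to 0.30 with 1 array left out, as Scd1 (-0.22 to 0.09) and Sqle (-0.27 to 0.24) turned with 1 array left out. In L against T, Srebf1 was 0.03 with median scaling and -0.15 to 0.01 with 1 array left out, and Sqle was 0.09 on its brighter probe. The cause was not tested. Median scaling moved the median of all genes in B against L to -0.06. The slide as a block was not run. Signal over background limits Mvk, Fasn, Dgat2, Pnpla3, Slc25a20 in T and the dim Scap probe.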
